A study of Homo sapiens with 4 samples.

Results

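The genes described here are 10 early response genes of activated T cells: the transcription factors EGR1, EGR2, EGR3 and EGR4, the nuclear receptors NR4A1, NR4A2 and NR4A3, the immediate early response genes IER2 and IER3, and CD69, an early activation antigen of the cell surface. They were chosen by gene symbol, with earlier results of these data known, and all 10 are among the 25122 genes of the deposited table. The 4 libraries hold mRNA of Jurkat cells, a T-cell acute lymphoblastic leukaemia line grown for decades in culture, and each has the genotype label WT. In 2 libraries the cells carried a control hairpin (shcontrol) and in the other 2 a hairpin that targets BDH1 (shBDH1), the mitochondrial enzyme that interconverts acetoacetate and 3-hydroxybutyrate. The sources used here give no time after hairpin delivery, no hairpin sequence and no stimulation of the cells, and cells with restored MYC were not analysed here. The labels do not say whether libraries of a group are separate cultures, so the spread between libraries may be only technical. The p-values of the main test (limma) rest mostly on that spread pooled over genes of like level. They rest less on the spread of each gene's own libraries.

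Immediate early genes are transcribed within minutes of a signal without the need for new protein. In T cells the antigen receptor reaches them through the ERK kinases, which act on serum response factor (SRF) and its ETS-domain partners at CArG boxes, and through calcium, which acts on NFAT, CREB and MEF2 factors. EGR proteins bind GC-rich DNA through 3 zinc fingers. EGR1 is a broad response factor, while EGR2 and EGR3 are also known as brakes on T cell activation. The NR4A proteins are orphan nuclear receptors that act without a known ligand, and NR4A1 is widely used to read antigen receptor signalling. CD69 holds T cells in tissue by taking the sphingosine-1-phosphate receptor S1PR1 off the cell surface.

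Promoter windows are shown for EGR1, EGR2 and NR4A3, because EGR1 and EGR2 rose and no NR4A gene was called. All 3 windows hold copies of 1 element, and those of EGR1 and EGR2 also hold a second. A window runs from 250 bases before a transcript start to 50 bases from it, 300 bases in all, in RefSeq for GRCh38.p14. Windows of 6 of the 10 genes were searched. Capitals mark each CArG box, the SRF element, which is 10 bases long. Its pattern (CC, then 6 bases that are A or T, then GG) is the same on both strands, though a single box need not be. Capitals also mark each TGACG, the core of the cAMP response element, which reads CGTCA where it lies on the other strand. EGR1 lies at chr5:138465229-138465528 on the plus strand, EGR2 at chr10:62816317-62816616 on the minus strand (the third of its 3 windows) and NR4A3 at chr9:99821635-99821934 on the plus strand. Each is written 5′ to 3′ on the strand of its gene.
EGR1: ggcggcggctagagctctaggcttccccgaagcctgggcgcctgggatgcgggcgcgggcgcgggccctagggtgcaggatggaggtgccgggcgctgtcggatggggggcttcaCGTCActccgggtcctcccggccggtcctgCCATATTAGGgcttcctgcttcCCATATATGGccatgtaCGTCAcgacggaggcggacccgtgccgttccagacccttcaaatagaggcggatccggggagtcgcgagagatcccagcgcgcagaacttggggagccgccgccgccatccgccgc
EGR2: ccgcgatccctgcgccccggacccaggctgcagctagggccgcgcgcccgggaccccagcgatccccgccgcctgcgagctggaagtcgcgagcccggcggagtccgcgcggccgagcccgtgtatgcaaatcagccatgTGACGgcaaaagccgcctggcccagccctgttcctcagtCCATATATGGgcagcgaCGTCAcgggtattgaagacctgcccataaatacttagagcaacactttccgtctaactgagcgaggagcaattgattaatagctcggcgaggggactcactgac
NR4A3: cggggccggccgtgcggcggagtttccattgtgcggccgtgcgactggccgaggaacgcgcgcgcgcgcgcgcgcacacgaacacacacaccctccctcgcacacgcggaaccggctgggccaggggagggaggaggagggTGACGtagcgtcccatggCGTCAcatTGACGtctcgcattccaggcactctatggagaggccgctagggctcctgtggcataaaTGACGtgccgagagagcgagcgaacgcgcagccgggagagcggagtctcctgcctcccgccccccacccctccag

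EGR1 held 2 CArG boxes, CCATATTAGG and CCATATATGG, which began 105 and 83 bases before the start. The EGR2 window shown held 1, CCATATATGG, which began 71 bases before the start; the other 2 windows of EGR2 held neither a CArG box nor TGACG. Of all 35116 windows of this length, 1.29% held a CArG box, 0.0313% held 2 or more, and 9 held CCATATATGG. In both EGR1 and EGR2 this box was followed, after 7 other bases, by CGTCA. Searched on both strands with any CArG box in that place, this arrangement stood in 2 of the 35116 windows, those of EGR1 and EGR2; it was searched for after the sequences had been seen. TGACG, in either orientation, stood 2 times in the EGR1 window, beginning 135 and 66 bases before the start, and 2 times in the EGR2 window shown, at 110 and 54. The NR4A3 window held no CArG box and 4 copies of TGACG, which began 109, 91, 83 and 25 bases before the start. TGACG in either orientation stood in 24.6% of all windows, and 2 or more copies in 6.02%. The IER2 window held 1 TGACG and that of EGR4 held 2, neither with a CArG box. Neither of the 2 NR4A1 windows held either element. Those windows lie at chr12:52022582-52022881 and chr12:52037465-52037764. Any other start within NR4A1, which ends at 52059507, was not searched, so its promoters are not fully described. Also searched on both strands were CCGGAAG, an ETS-factor site (10.3% of all windows), and TATAA (20.4%); IER2 held the first, 27 bases before its start, and EGR4 the second, at the same distance. AAAGGTCA, the site of an NR4A monomer (1.22%), and GCGGGGGCG, an EGR site (5.07%), stood in none of the searched windows of these genes. These matches describe the letters only, and the promoters of EGR3, NR4A2, IER3 and CD69 were not searched.

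Of the 10 genes, 9 had a mean of at least 10 normalized counts over the 4 libraries and entered the test; EGR4 did not. Normalized counts are reads per gene after division by a size factor of the library, done by the authors. Of the 9 tested, 6 rose in shBDH1 (EGR1, EGR2, EGR3, IER2, IER3 and CD69), none fell, and the 3 NR4A genes were not called, by limma with Benjamini-Hochberg adjusted p under 0.05 over 19301 genes. Over all genes tested, 20.3% rose and 20.8% fell. Because the 10 genes were chosen with earlier results of these data known, these shares are no test of the set. The median log2 fold change was 1.39 for the 9 genes and -0.01 for all genes tested; fold changes compare shBDH1 with shcontrol after taking log2(value + 1), and SE is the standard error.

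**Figure D1:**
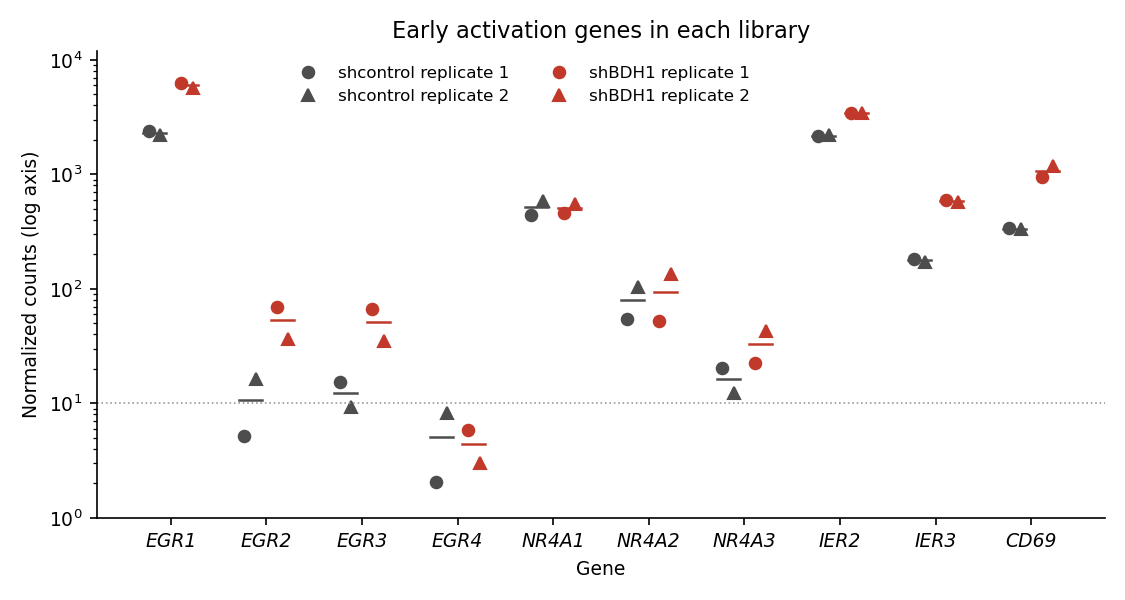
Normalized counts of the 10 genes (x axis) in each of the 4 libraries (y axis, log scale); grey marks are shcontrol and red marks shBDH1, circles are replicate 1, triangles replicate 2, bars are group means, and the dotted line is the mean of 10 that a gene needed to be tested. EGR1, IER2, IER3 and CD69 stand clear of their shcontrol values, whereas NR4A1 and NR4A2 are split by replicate number rather than by hairpin.

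The hairpin's target was checked first. BDH1 had 1725 and 1911 normalized counts in shcontrol and 1221 and 1412 in shBDH1, a log2 fold change of -0.47 (limma adjusted p = 1.5e-05). MYC, the growth-promoting transcription factor named in the study's description, changed by -0.99 (limma adjusted p = 2.7e-18) and CDK4, the cyclin D-dependent kinase of its title, by -0.56 (limma adjusted p = 1.3e-10). The libraries held 28681511 to 29453383 reads in genes. All 11 fixed markers of the T cell line were present, summing to 53093 to 53202 normalized counts in shcontrol and 63456 to 64728 in shBDH1; 6 of them rose and 1 fell. Markers of other cell types summed to far less than those of the T cell line. B cell markers summed to 219.7 in both shcontrol libraries and 666 to 686 in shBDH1 (1 of 2 tested rose, CD79A). In the same order, myeloid markers summed to 62.3 to 72.9 and 116 to 126 (1 of 2 rose, LYZ at 0 in at least 1 library). NK cell markers summed to 82.8 to 89.3 and 190 to 241 (2 of 3 rose). Erythroid and megakaryocyte markers summed to 65.7 to 82.8 and 61.9 to 68.4 (the 1 tested was not called). Fibroblast and epithelial markers summed to 718 to 732 and 922 to 1031 (2 of 3 rose). No row was held for 2 B cell, 1 NK cell, 4 erythroid and megakaryocyte and 2 fibroblast and epithelial markers. The part of these markers' cell types in the results was not tested.

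EGR1 rose and carried nearly all reads of its family. It had 2398 and 2188 normalized counts with the control hairpin and 6313 and 5721 with shBDH1. The groups lay far apart, and each pair of libraries differed by about the same small ratio. Group means were 2293 ± 148 and 6017 ± 419 (SD, n = 2 each), giving a log2 fold change of 1.39 (SE 0.06, 95% interval 1.27 to 1.51, limma adjusted p = 1.9e-17). In bulk RNA, a change in the share of cells with a transcript and a change in its RNA per cell cannot be told apart. A larger log2 fold change was found for 3.71% of the genes tested. EGR1 (ENSG00000120738) lies on chromosome 5 from 138465490 to 138469315 (hg38, plus strand), with 2 merged exons.

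EGR2 and EGR3 rose from a far lower level and rest on few reads. EGR2 had 5 and 16 reads in shcontrol and 71 and 36 in shBDH1, or 5.13 and 16.4 against 69.8 and 36.2 normalized counts. The groups did not overlap, but the shBDH1 libraries also differed from each other: the exact 95% Poisson intervals of their 71 and 36 reads were 55.5 to 89.6 and 25.2 to 49.8. The log2 fold change of EGR2 was 2.31 (SE 0.60, 95% interval 1.09 to 3.53, limma adjusted p = 0.0023). EGR3 had 15 and 9 reads in shcontrol and 68 and 35 in shBDH1, or 15.4 and 9.20 against 66.8 and 35.2 normalized counts. As for EGR2, shBDH1 replicate 1 was the higher of its pair and the groups lay apart. The log2 fold change of EGR3 was 1.94 (SE 0.54, 95% interval 0.83 to 3.05, limma adjusted p = 0.0048). Both calls were lost without shBDH1 replicate 1, with limma adjusted p = 0.091 for EGR2 (log2 fold change 1.85) and 0.14 for EGR3 (1.48). Among all genes tested with a mean under 100, 11.8% rose. Such intervals cover counting error only, since reads made by PCR are not independent molecules.

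EGR2 (ENSG00000122877) lies on chromosome 10 from 62811996 to 62919900 (minus strand) and EGR3 (ENSG00000179388) on chromosome 8 from 22687659 to 22693302 (minus strand). A transcript on the opposite strand, AC055854.1, overlaps 164 exon bases of EGR3 and had 16.4 and 16.4 normalized counts in shcontrol and 57.0 and 98.6 in shBDH1. It was named after its values were seen. The strand setting of the counting is not known, so reads of this pair cannot be told apart. EGR4 (ENSG00000135625, chromosome 2 from 73290929 to 73293705) had 2 and 8 reads in shcontrol and 6 and 3 in shBDH1, and its groups overlapped; no change was detectable at this depth.

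Per length, EGR1 made up 98.3% to 99.3% of the summed level of the EGR family in every library. The summed level, in RPKM (reads per kilobase of merged exon, scaled to equal library totals), was 26.1 and 24.0 in shcontrol and 70.7 and 63.6 in shBDH1. EGR2 made up 0.181% and 0.627% of it in shcontrol and 0.924% and 0.533% in shBDH1, which overlap. The summed level of the family is therefore close to that of EGR1.

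None of the 3 NR4A genes was called. NR4A1, the most abundant of the family, had 443 and 590 normalized counts in shcontrol, and with shBDH1 464 and 550. The groups overlapped fully, and in each group replicate 2 was higher than replicate 1. The mean was 516 ± 104 in shcontrol and 507 ± 60.9 in shBDH1 (SD, n = 2 each), which gave a log2 difference of -0.02 (SE 0.13, 95% interval -0.28 to 0.25, limma adjusted p = 0.94). The sign of this value changed with the scaling: it was 0.01 with equal library totals and 0.03 with upper-quartile factors. The interval leaves out a change as large as that of EGR1, whose own interval began at 1.27.

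The ratio of EGR1 to NR4A1 within each library, in normalized counts, was 5.42 and 3.71 in shcontrol, and with shBDH1 13.6 and 10.4. The groups did not overlap. The log2 difference was 1.41, with p = 0.33 in a two-sided exact permutation test, the smallest that 2 libraries against 2 can give.

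NR4A2 differed more between replicates than between groups. It had 54.4 and 104 normalized counts in shcontrol and 52.1 and 134 in shBDH1. Replicate 2 was 1.92 times replicate 1 in shcontrol and 2.57 times in shBDH1. The log2 fold change between groups was 0.15 (SE 0.36, 95% interval -0.60 to 0.89, limma adjusted p = 0.78), and its sign turned without shcontrol replicate 1 (-0.32) or shBDH1 replicate 2 (-0.52). The reads behind it were 53 and 102 in shcontrol against 53 and 133 in shBDH1, and the exact 95% Poisson intervals of the replicates, 39.7 to 69.3 against 83.2 to 124 in shcontrol and 39.7 to 69.3 against 111 to 158 in shBDH1, did not meet in either group.

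A higher replicate 2 in both groups was searched for after the NR4A values had been seen. Of 15560 genes with a mean of at least 50, 29 (0.186%) were at least 1.5 times higher in replicate 2 in both groups, NR4A2 among them, and 27 were as much higher in replicate 1. At a ratio of 1.1, which NR4A1 also passed (1.33 in shcontrol and 1.19 in shBDH1), the counts were 720 (4.63%) and 795. EGR1, IER2 and IER3 were within 10% of equality between replicates in both groups, since their ratios were 0.91 and 0.91, 1.02 and 0.99, and 0.95 and 0.95. Of 28 other immediate early genes at this level, 2 passed the ratio of 1.1 (PPP1R15A and CCN1) and none that of 1.5. The sources used here do not say whether a replicate number marks a shared culture or day.

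**Figure D2:**
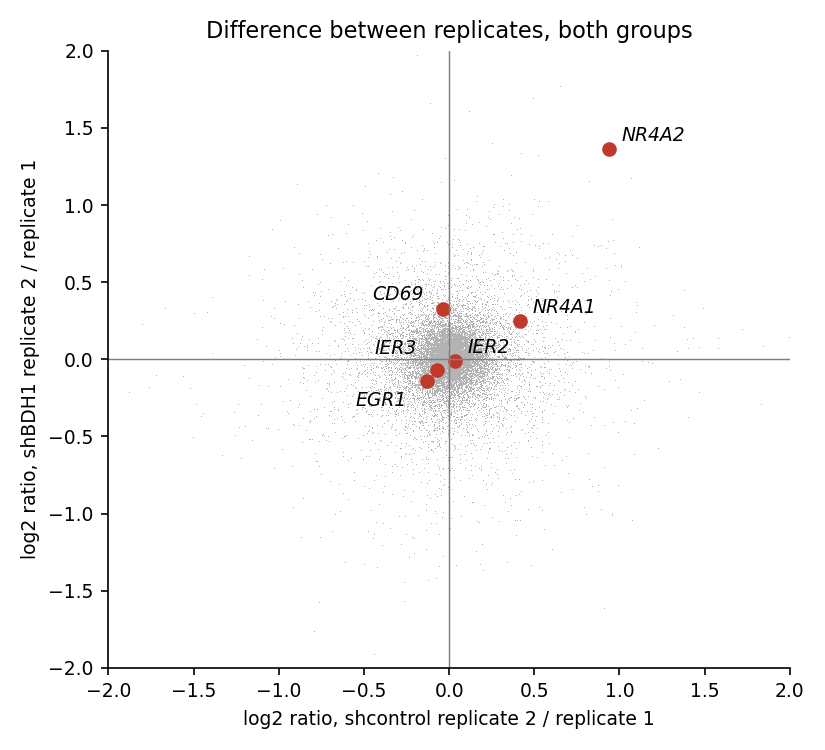
Log2 ratio of replicate 2 to replicate 1 in shcontrol (x axis) and in shBDH1 (y axis) for the 15560 genes with a mean of at least 50 normalized counts (grey) and the 6 early activation genes among them (red, named); 9 genes lie beyond the axes. NR4A2 stands far to the upper right, with ratios of 1.92 and 2.57, NR4A1 on the same side, and EGR1, IER2 and IER3 near the centre.

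NR4A3 was the least abundant of the 3 receptors. It had 20 and 12 reads in shcontrol and 23 and 43 in shBDH1, or 20.5 and 12.3 against 22.6 and 43.2 normalized counts. The groups did not overlap, though shcontrol replicate 1 and shBDH1 replicate 1 were nearly equal. Between groups NR4A3 had a log2 difference of 0.94 (SE 0.56, 95% interval -0.22 to 2.09, limma adjusted p = 0.20), so a change of NR4A3 was not detectable at this depth. Both shBDH1 libraries lay above both shcontrol libraries for 7 of the 9 tested genes, NR4A3 included, and for 34.1% of all genes tested. Per length of merged exons, NR4A1 made up 65.0% to 79.2% of the family's summed level, NR4A2 16.4% to 29.1% and NR4A3 1.78% to 5.91%. These shares depend on the length used, since NR4A1 has 7295 merged exon bases but a longest coding transcript of 3511. By the longest coding transcript, the mean RPKM of NR4A1, NR4A2 and NR4A3 were 4.99, 0.776 and 0.0976 in shcontrol. In shBDH1 they were 4.99, 0.925 and 0.199.

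NR4A1 (ENSG00000123358) lies on chromosome 12 from 52022832 to 52059507 (plus strand), NR4A2 (ENSG00000153234) on chromosome 2 from 156324432 to 156342348 (minus strand) and NR4A3 (ENSG00000119508) on chromosome 9 from 99821855 to 99866891 (plus strand). The opposite-strand AC025259.3, named after its values were seen, overlaps 754 exon bases of NR4A1. It had 41.1 and 63.4 normalized counts in shcontrol and 78.6 and 78.4 in shBDH1 (limma adjusted p = 0.15). Reads of NR4A1 and AC025259.3 cannot be told apart where they overlap, since the strand setting is not known.

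**Figure D3:**
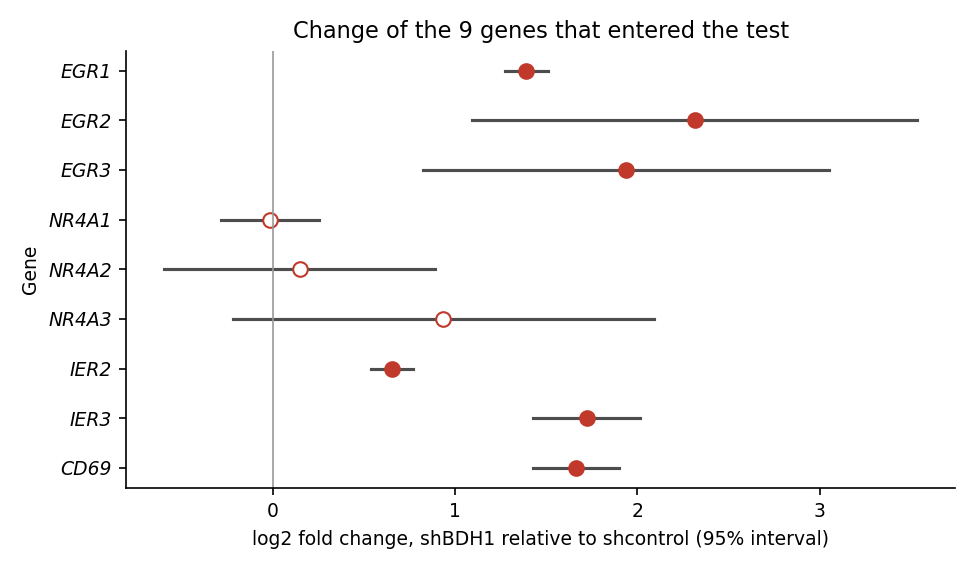
Log2 fold change of shBDH1 relative to shcontrol (x axis) with its 95% interval from limma for the 9 genes that entered the test (y axis); filled points passed an adjusted p of 0.05 and open points did not. The intervals of EGR2 and EGR3 are wide and start at 1.09 and 0.83, and those of the 3 NR4A genes cover 0.

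IER2 and IER3, a nuclear regulator and a regulator of survival signalling that share a name but no family, both rose. IER2 had 2153 and 2206 normalized counts in shcontrol and 3442 and 3413 in shBDH1. It had the smallest replicate spread of the 10 genes in both groups relative to its mean except for CD69 in shcontrol, with means of 2179 ± 37.0 and 3428 ± 20.5 (SD, n = 2 each). Its log2 fold change of 0.65 (SE 0.06, 95% interval 0.54 to 0.77, limma adjusted p = 1.6e-10) was the smallest of the 6 that rose. IER2 (ENSG00000160888, chromosome 19 from 13150415 to 13154908, plus strand) shares 946 exon bases with AC011446.2 on the opposite strand. That transcript, named after its values were seen, had 1674 and 1771 normalized counts in shcontrol and 2831 and 2781 in shBDH1, a log2 fold change of 0.70, so the level of IER2 itself is uncertain.

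IER3 had 182 and 173 normalized counts in shcontrol, and with shBDH1 602 and 572. The libraries of each group lay close together and the groups far apart. IER3 thus had a log2 fold change of 1.72 (SE 0.14, 95% interval 1.43 to 2.02, limma adjusted p = 6.8e-11), and 2.25% of the genes tested had a larger one. IER3 (ENSG00000137331, chromosome 6 from 30743199 to 30744554, minus strand) has 1 merged exon, of which 359 bases overlap IER3-AS1 on the opposite strand. IER3-AS1, named after its values were seen, had 15.4 and 22.5 normalized counts in shcontrol, and with shBDH1 91.4 and 96.5. Its log2 fold change was 2.27. With the strand setting of the counting not known, reads of IER3 and IER3-AS1 cannot be told apart where they overlap. The ratio of IER3 to IER2 within a library was 0.0844 and 0.0783 in shcontrol and 0.175 and 0.168 in shBDH1, a log2 difference of 1.07 (two-sided exact permutation p = 0.33, the smallest possible).

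CD69 was the 1 surface antigen of the set. It had 338 and 330 normalized counts in shcontrol, and with shBDH1 947 and 1189. The shcontrol libraries were nearly equal, and both shBDH1 libraries were clearly higher, with replicate 2 above replicate 1. Group means were 334 ± 5.44 and 1068 ± 171 (SD, n = 2 each), and the rise on the log2 scale was 1.66 (SE 0.11, 95% interval 1.43 to 1.90, limma adjusted p = 1.4e-12). Its gene (ENSG00000110848) lies on chromosome 12 from 9752486 to 9760901 (minus strand), with 4 merged exons, and no other annotated gene overlaps it.

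The order of the genes by level was set per length. In shcontrol the highest were EGR1 at 24.8 ± 1.59 and IER2 at 24.1 ± 0.420 RPKM (SD, n = 2 each), which overlapped and did not differ beyond their spread. IER3 at 4.44 ± 0.158, CD69 at 4.01 ± 0.0635, NR4A1 at 2.40 ± 0.486 and NR4A2 at 0.679 ± 0.302 followed, each with both libraries above the next. EGR2, NR4A3, EGR3 and EGR4, at 0.0989 to 0.0731, could not be put in order. In shBDH1 EGR1, at 66.2 ± 4.59, stood 1.72 times above IER2, at 38.5 ± 0.221, with no overlap. IER3 at 15.0 ± 0.525 and CD69 at 13.0 ± 2.09 came next, and CD69 was 5.42 times NR4A1 (2.40 ± 0.289), against 1.67 times in shcontrol. NR4A2 and EGR2 overlapped in shBDH1, as did EGR2 and EGR3. Counting length by the longest coding transcript kept the rank of 5 of the 10 genes in shcontrol and 8 in shBDH1, so the ranks within the upper 5 depend on the transcript counted.

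Genes known to act with or beside the 10 were read from 7 lists, also chosen with earlier results of these data known. The background of 20.3% of all genes tested that rose and 20.8% that fell applies to each list. Among 31 tested genes of the list of other immediate early genes, 15 rose and 4 fell, with a median log2 fold change of 0.50. JUNB, an AP-1 subunit, went from 663 ± 6.52 to 1335 ± 6.51 normalized counts, and MCL1, which protects cells from apoptosis, from 4073 ± 48.2 to 6135 ± 152 (SD, n = 2 each). ATF3, a stress-induced factor, fell from 1219 ± 68.5 to 588 ± 53.8. The early genes thus did not all move one way.

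Of 18 transcription factors known at immediate early promoters, 9 rose and 1 fell, with a median of 0.18. ELK3, an ETS-domain partner of SRF, had a log2 fold change of 0.69, NFKB1, a subunit of NF-kB, 0.61, and MEF2A, which binds MEF2 sites, 0.36, all past the test. Of 6 tested partners and corepressors of EGR and NR4A proteins, 3 rose and 1 fell (median 0.17). The EGR corepressor NAB2, itself an EGR target, rose by 0.41 on the log2 scale. The 2 retinoid X receptors tested, which can pair with NR4A1 and NR4A2, moved apart: RXRA went from 173 ± 17.5 to 378 ± 8.64 and RXRB from 2069 ± 40.8 to 1046 ± 37.9 normalized counts (SD, n = 2 each).

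Of 10 tested later T cell activation genes, 7 rose and none fell, with a median of 0.64. TNF, an inflammatory cytokine, is counted among the 7, but it passed the filter on low values only through shBDH1 and so had to differ. It had 0 reads in both shcontrol libraries and 61 and 53 in shBDH1, at least 18.4-fold higher against a floor of 3 reads per library; with TNF at that bound the median stayed 0.64. CD83 rose by 0.51 and the transferrin receptor TFRC by 0.28 on the log2 scale. Without shBDH1 replicate 2, 4 of the list were called. Of this list, 15 of 24 genes had a row in the table. The 9 without a row were IL2, TNFRSF9, TNFRSF18, FASLG, CD44, CTLA4, IFNG, CCL3 and CCL4. IL2RA, LAG3, IRF4, XCL1 and XCL2 had a row but were under the filter. The count of 7 therefore does not cover these genes.

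Of 9 tested genes listed as EGR2 and EGR3 associated brakes, 6 rose and 2 fell (median 0.29). CDKN1A, the cell cycle inhibitor p21, went from 44.1 ± 13.2 to 257 ± 51.4 normalized counts (SD, n = 2 each) and NDRG1 rose by 0.55 on the log2 scale, while DGKZ, a kinase that removes diacylglycerol, fell by 0.33. Of 7 NR4A-linked T cell genes, 4 rose and 1 fell (median 0.25). These included TOX2 at 1.56, IKZF2, which encodes Helios, at 0.95 and RUNX1 at 0.29.

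All 6 genes listed as counterparts of CD69 in T cell egress rose, with a median of 0.91; 4 of them were called with 1 variance prior for all genes, and 5 without shcontrol replicate 2 or without shBDH1 replicate 1. CCR7, a lymph node homing receptor, went from 86.1 ± 8.98 to 498 ± 10.9, and KLF2, a factor that drives S1PR1, from 1306 ± 8.75 to 2738 ± 470 normalized counts (SD, n = 2 each). In resting T cells these genes are high and CD69 is low; here CD69 and all 6 were higher in shBDH1.

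**Figure D4:**
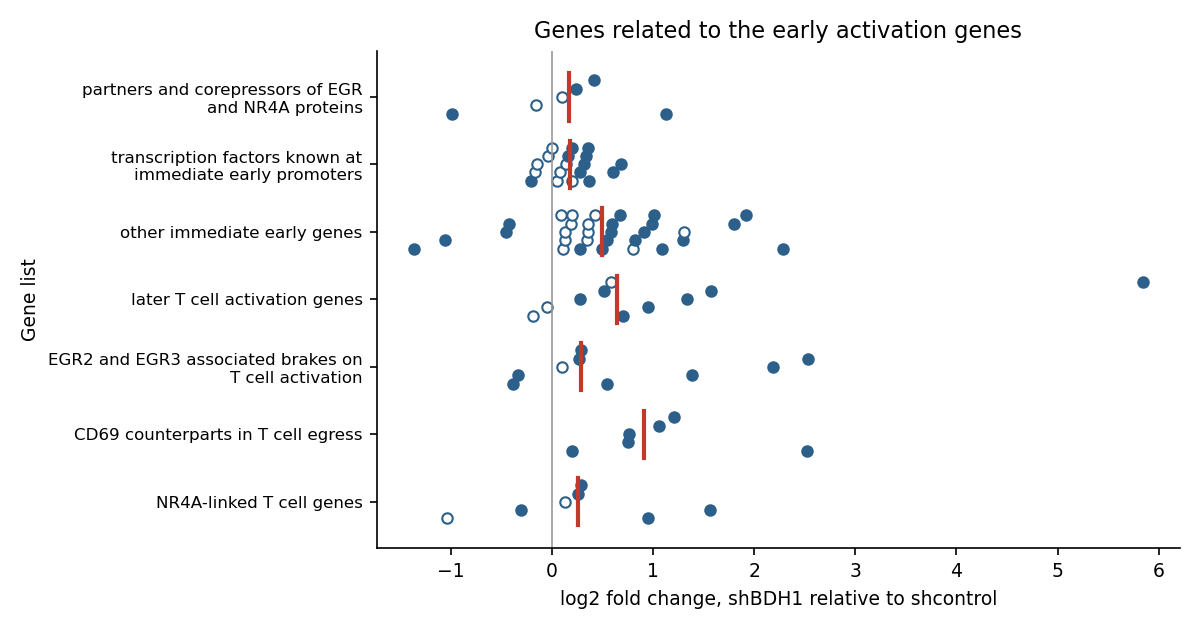
Log2 fold change of shBDH1 relative to shcontrol (x axis) for each tested gene of the 7 related lists (y axis); filled points passed a limma adjusted p of 0.05, open points did not, and red bars are list medians. The point at the far right is TNF, with no reads in shcontrol, whose fitted value depends on the pseudocount, and all 6 counterparts of CD69 lie to the right of 0.

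Profiles over the 4 libraries were compared by Euclidean distance between log2(value + 1) values centred on each gene's mean, among 13922 genes with a mean of at least 100. Among the nearest to EGR1 were SESN3 and CLU, at distances of 0.080 and 0.10. SESN3 had 900 and 849 normalized counts in shcontrol, and with shBDH1 2318 and 2062, the same order of libraries as EGR1. Nearest to CD69 were HHEX, KCNK17 and AQP4-AS1, at 0.15, 0.17 and 0.17. HHEX had 84.2 and 76.7 in shcontrol and 231 and 320 in shBDH1, and like CD69 was highest in shBDH1 replicate 2. With 4 libraries in 2 groups, any gene of like fold change lies near.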

How the data were processed

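The data are 4 mRNA libraries of Jurkat cells, 2 with shcontrol and 2 with shBDH1. The submitters' processing notes name HISAT2 2.2.1, FastQC 0.11.9 and the genome build hg38; counter, annotation and strand setting: not given in the sources used here. The deposited values are a normalized signal: the authors had divided read counts per gene by 1 size factor per library, as found from the values, all of which (100% in each library) were whole multiples of 1 step within 0.01 reads. The size factors were 0.974, 0.978, 1.02 and 0.994.

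The main test was limma with an intensity-dependent variance prior on log2(value + 1) for the 19301 genes with a mean of at least 10, adjusted by Benjamini-Hochberg at 0.05; residual degrees of freedom were 2 and prior ones 25.8. It was tested on simulated data. Alternatives were edgeR, DESeq2 and limma-voom on recovered reads, other scalings, filters, pseudocounts and variance priors, the replicate block, and each library left out. Positions and lengths came from GENCODE 29 (GRCh38, the build called hg38), promoter windows from RefSeq. Named genes were the 10, BDH1, MYC, CDK4, the 3 smallest p of each list, and the 3 nearest profiles of EGR1 and CD69; some genes that this rule takes are not reported here, and others are said to be chosen after their values were seen. The 10 genes and the lists were chosen with earlier results of these data known. In R 4.3.3 the packages were DESeq2 1.42.0, edgeR 4.0.16 and limma 3.58.1, and in Python 3.11.15 matplotlib 3.10.9, scipy 1.17.1, pandas 2.3.3 and numpy 2.4.6.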

Additional observations from a re-analysis of the deposited data

How the results depend on the processing

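EGR1, IER2, IER3 and CD69 rose under all 16 alternatives, with log2 fold changes of 1.32 to 1.46, 0.64 to 0.70, 1.69 to 1.77 and 1.50 to 1.83. With 1 variance prior for all genes they were called only narrowly (limma adjusted p = 0.029, 0.030, 0.029 and 0.030). The size of their main p-values thus depends on the variance prior. The number of the 10 genes that rose was 4 to 6 and the number that fell 0 throughout; with each library left out in turn it was 4 to 6. EGR2 and EGR3 lost the call with 1 variance prior for all genes (limma adjusted p = 0.11 and 0.075; log2 fold changes 2.31 and 1.94) and without shBDH1 replicate 1; over libraries left out their log2 fold changes ran from 1.56 to 3.06 and from 1.48 to 2.39. With a filter at a mean of 50 they and NR4A3 had no value. NR4A1 reversed with equal library totals (0.0083), upper-quartile factors (0.027) and without shcontrol replicate 2 (0.19) or shBDH1 replicate 1 (0.11), and NR4A2 without shcontrol replicate 1 (-0.32) or shBDH1 replicate 2 (-0.52); their ranges without 1 library were -0.22 to 0.19 and -0.52 to 0.82, never called. NR4A3 was never called (0.48 to 1.39).

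With 1 variance prior for all genes, 2844 genes were called in place of 7930, and the called genes numbered 2 among partners and corepressors, 2 among transcription factors at immediate early promoters, 2 among later activation genes, 4 among EGR2 and EGR3 associated brakes and 2 among NR4A-linked genes, with 4 of 6 among counterparts of CD69 and 13 in place of 19 among other immediate early genes; the cause was not tested. Leaving out 1 library gave 6626 to 6902 calls over all genes, and 4 to 7 among later activation genes, where 4 was without shBDH1 replicate 2, and there fewer samples enter. The replicate block gave 8325 calls and changed no call of the 10 genes; deviations of same-numbered libraries had a correlation of 0.035 across 13922 genes with a mean of at least 100, and nothing in the labels pairs them. With the longest coding transcript as length, 5 genes kept their rank in shcontrol and 8 in shBDH1, by construction of that scale. Upper-quartile factors called 4426 genes higher and 3339 lower, against 3910 and 4020. Depth limits EGR2, EGR3, EGR4 and NR4A3 most, with 2 to 71 reads per library.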
